A study of Mus musculus with 4 samples.

Results

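The genes described here are the nuclear genes of the mitochondrial respiratory chain, meaning the structural subunits and assembly factors of complexes I to V. They were chosen by gene symbol alone, as every row whose symbol began with Nduf, Sdhaf, Uqcr, Uqcc, Cox4 to Cox8, Cox10 to Cox19, Cox20, Atp5 or Atpaf, or was Sdha, Sdhb, Sdhc or Sdhd. This gave 103 of the 13422 genes listed in the table. By role they were 77 structural subunits and 24 assembly factors, and the remaining entries were the pseudogene Atp5l-ps1 and Atp5s, a coupling factor that was put in neither class. No expression value entered the choice.

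RNA was sequenced from AML12, an immortalised hepatocyte line from a CD-1 mouse, in 2 libraries from cells transfected with the plasmid PAV-TBG-P2A-GFP-Chrna4 (Chrna4 1 and Chrna4 2) and 2 from cells transfected with pCMV6-AC-GFP (Control 1 and Control 3). All cells carried a GFP plasmid and grew in the same medium with insulin, transferrin, selenium and dexamethasone. The Chrna4 product is a subunit of nicotinic acetylcholine receptors, which are cation channels, and TBG is a promoter active in hepatocytes. Since promoter and backbone of the 2 plasmids differ as well as the insert, the effect of Chrna4 and that of the plasmid cannot be told apart.

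The libraries had 31301396 and 32228360 reads on listed genes in Chrna4 and 31968119 and 31669041 in Control. Chrna4 itself had 2678 and 2290 reads in the Chrna4 libraries and 1 and 3 in the Control libraries. Of 15 hepatocyte markers 12 were listed, with a summed level of 4797 and 4960 CPM (reads scaled to library size) in Chrna4. In Control the sum was 4731 and 4862 CPM. Most of it came from the keratin genes Krt18 and Krt8. Krt18 had 1809 and 1837 CPM in Chrna4 and 1729 and 1763 CPM in Control. Krt8 had 1343 and 1397 CPM in Chrna4 and 1415 and 1371 CPM in Control. Of the 9 markers tested, 3 were called lower (against 6.66% of all tested genes) and 0 higher (against 9.26%). Tf, Fgb and Cps1 were not among the listed genes. Albumin (Alb) was low, at 7.93 and 8.51 CPM in Chrna4 and 17.8 and 19.0 CPM in Control. It was called lower, with a log2 change of -1.07 (adjusted p = 4.3e-05, limma-trend). Ttr was called lower too, at 28.0 and 23.8 CPM in Chrna4 and 58.2 and 48.3 CPM in Control. Its log2 change was -1.01 (adjusted p = 4.3e-05, limma-trend). The hepatocyte regulator Hnf4a stood at 217 and 222 CPM in Chrna4 and 231 and 248 CPM in Control. Summed biliary markers were 817 and 800 CPM in Chrna4 and 1121 and 1199 CPM in Control. Of these markers 3 of 4 were called lower (against 6.66% of all tested genes), and their part in the results was not tested. Summed immune markers reached 5.27 CPM at most, and endothelial and fibroblast markers stayed below 1 CPM.

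The respiratory chain moves electrons from NADH through complex I, or from succinate through complex II, by way of complex III to complex IV, which reduces oxygen. Complexes I, III and IV pump protons across the inner mitochondrial membrane, and complex V, the ATP synthase, uses the gradient to make ATP. Most subunits are encoded in the nucleus and imported, a few core subunits are encoded by mitochondrial DNA, and dedicated assembly factors build the complexes without staying in them. Hepatocytes depend on this chain for gluconeogenesis, urea synthesis and fat oxidation.

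By their medians, structural subunit genes were slightly lower in Chrna4 cells in all 5 complexes, least so in complex III, while assembly factors were split in direction. Of the 103 genes, 99 had a mean of at least 1 CPM and were tested with limma-trend on log2(CPM + 1), with Benjamini-Hochberg adjustment over all 11298 tested genes. Their median log2 change, Chrna4 over Control, was -0.10, and 87 of 99 (87.9%) were below 0, against a median of -0.003 and 50.8% below 0 over all tested genes. At an adjusted p under 0.05, 8 were lower (8.08%, against 6.66% of all tested genes) and 1 was higher (1.01%, against 9.26%). The share called lower was therefore close to that of the whole table, and the difference lay in the many small decreases. Both Chrna4 libraries were below both Control libraries for 52 of the 99 genes (52.5%, against 28.8% of all tested genes), and above both for 8 (8.08%, against 28.7%). In bulk RNA, fewer cells expressing these genes and less RNA per cell cannot be told apart.

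**Figure D1:**
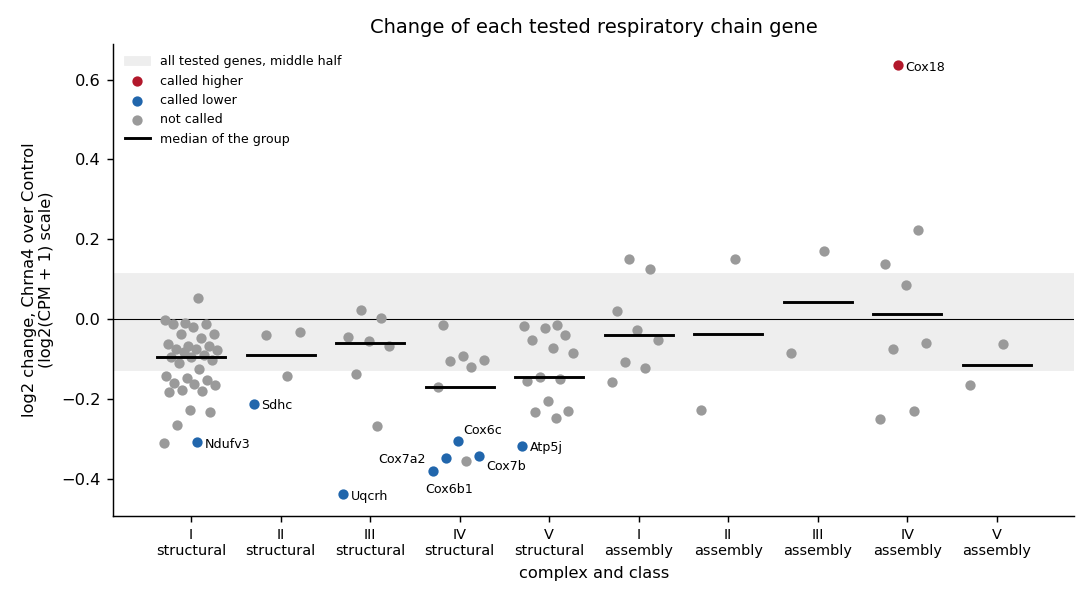
Log2 change, Chrna4 over Control on the log2(CPM + 1) scale, of the 96 tested genes assigned to a single complex, by complex and class. Each point is a gene, blue and red points passed the adjusted p of 0.05, the bar is the group median and the grey band spans the first to the third quartile of all tested genes. Nearly all structural subunits lie below 0, and Cox18 lies highest.

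The subunits and the assembly factors differed in pattern, although the difference between the classes was not tested. Among 74 tested structural subunits, 71 (95.9%) were below 0 and the median log2 change was -0.10. Of these subunits 8 were called lower (10.8%, against 6.66% of all tested genes) and 0 higher (0%, against 9.26%). An unadjusted p under 0.05 by limma-trend was found for 23 of the 74, against 3310 of the 11298 tested genes, a similar share. For these subunits edgeR, limma-voom and DESeq2 also called none higher. Among 23 tested assembly factors, 14 (60.9%) were below 0 and the median was -0.06. There 8 genes had both Chrna4 libraries below both Control libraries (34.8%, against 28.8% of all tested genes) and 7 had both above (30.4%, against 28.7%), shares near those of the whole table. Summed over genes, structural subunits came to 6904 and 6727 CPM in Chrna4 and 7439 and 7107 CPM in Control. Assembly factors summed to 749 and 725 CPM in Chrna4 and 712 and 692 CPM in Control. Neither pair of sums overlapped between groups on this scale. Much of the assembly factor difference lay in the single gene Cox18. It averaged 78.5 CPM in Chrna4 and 50.2 CPM in Control, against 737 and 702 CPM for the whole class. With library totals in place of the scaling factors, the structural sums were 6785 and 6594 in Chrna4 and 7557 and 7263 in Control, still apart, while the assembly factor sums were 736 and 710 in Chrna4 and 724 and 707 in Control and overlapped.

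**Figure D2:**
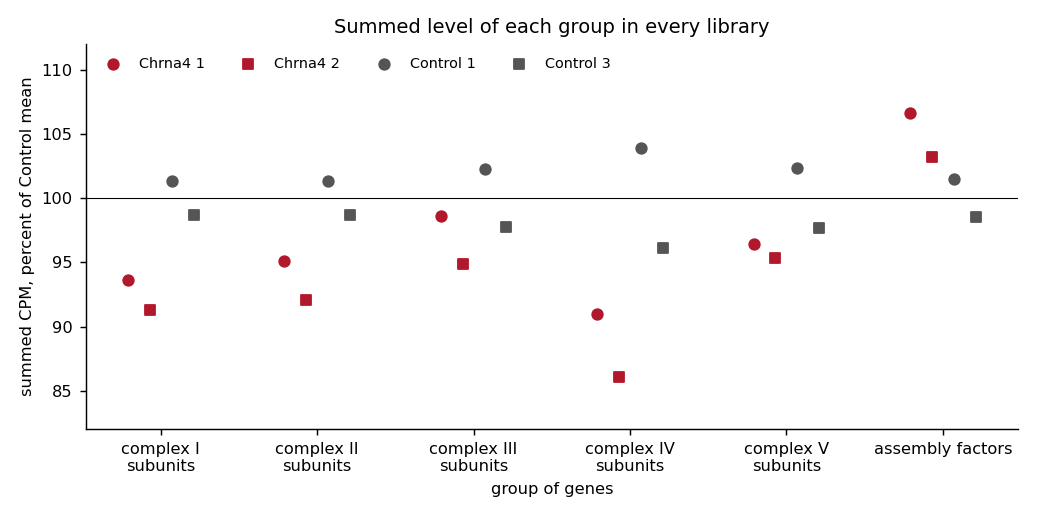
Summed CPM of the structural subunits of each complex and of all assembly factors in the 4 libraries, as a percentage of the Control mean. The axis starts above 0. Complex IV subunits were lowest, at 90.9% and 86.1% in Chrna4. The assembly factors stood at 106.7% and 103.2% in Chrna4, with much of that difference from Cox18.

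A difference between the control libraries runs through these values. Control 1 was above Control 3 for 73 of the 99 genes, with a median log2 difference of 0.04, and Chrna4 1 was above Chrna4 2 for 65, with a median of 0.05. Without Control 1 the number of genes below 0 was 70 of 99 and without Chrna4 2 it was 74 of 99, and in those analyses the median of the assembly factors was 0.0008 and 0.048, above 0. Calls depended on single libraries too. Leaving out either Control library raised the number called lower, and leaving out either Chrna4 library reduced it. Over all tested genes the number called lower moved the same way. Without Chrna4 2 only Cox6b1 and Cox7b stayed called lower, and without Chrna4 1 the calls of Atp5j and Sdhc were lost. Control 1 exceeded Control 3 by a median log2 of 0.33 for the c ring of complex V, 0.20 for its peripheral stalk and 0.15 for complex IV subunits.

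Complex IV, cytochrome c oxidase, had the largest decrease by median, although differences between the complexes were not tested. All 11 tested structural genes were below 0, and the median log2 change was -0.17. Complex V was next, at -0.15, and with single libraries left out the ranges of both medians overlapped. Called lower were 4 of the 11 genes (36.4%, against 6.66% of all tested genes). Gene positions here and below are those of GENCODE M21 on GRCm38. The summed level of complex IV subunits was 1144 and 1083 CPM in Chrna4 and 1307 and 1209 CPM in Control. Cox6b1 (chr7:30616861-30626151, minus strand), an accessory subunit facing the intermembrane space, had 81.1 and 83.5 CPM in Chrna4 and 108 and 107 CPM in Control. The replicates lay close together and the groups were far apart, with a log2 change of -0.38 ± 0.06 (SE) and an adjusted p of 0.0012 by limma-trend. Cox7b (chrX:106015700-106022450, plus strand), a small transmembrane subunit, had 114 and 113 CPM in Chrna4 and 149 and 139 CPM in Control. It fell by 0.34 on the log2 scale (adjusted p = 0.0025, limma-trend), again with no overlap.

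Cox6c (chr15:35925886-35938246, minus strand), another single-span subunit, had 49.0 and 44.6 CPM in Chrna4 and 61.2 and 55.0 CPM in Control, a log2 change of -0.31 (adjusted p = 0.024, limma-trend). Cox7a2 (chr9:79755361-79759878, minus strand), the widely expressed form of subunit 7a, had 34.4 and 29.4 CPM in Chrna4 and 43.8 and 37.8 CPM in Control, a log2 change of -0.35 (adjusted p = 0.035, limma-trend). In both genes the Control libraries differed by several CPM, yet the groups stayed apart. Cox7c had 16.9 and 13.9 CPM in Chrna4 and 21.9 and 18.1 CPM in Control and did not pass (log2 change -0.35, adjusted p = 0.077, limma-trend). The subunits of highest CPM changed less. Cox8a, with 331 and 309 CPM in Chrna4 and 356 and 333 CPM in Control, had a log2 change of -0.10, and Cox4i1, at 164 and 153 CPM in Chrna4 and 184 and 161 CPM in Control, had -0.12, neither past the threshold. Ndufa4, a complex IV subunit despite its name, was nearly level, at 123 and 118 CPM in Chrna4 and 129 and 115 CPM in Control.

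Complex III, which passes electrons from ubiquinol to cytochrome c, had 1 of 8 subunits called lower (12.5%, against 6.66% of all tested genes), Uqcrh. Uqcrh (chr4:116066965-116075071, minus strand), the hinge protein that helps cytochrome c1 meet cytochrome c, had 21.1 and 18.5 CPM in Chrna4 and 27.3 and 26.8 CPM in Control. Its log2 change of -0.44 ± 0.10 (SE; adjusted p = 0.0093, limma-trend) was the lowest of all 99 genes tested. The core proteins Uqcrc1, at 198 and 204 CPM in Chrna4 and 212 and 205 CPM in Control, and Uqcrc2, at 205 and 207 CPM in Chrna4 and 204 and 201 CPM in Control, differed by little more than their replicates. Uqcr11, a small accessory subunit, had 13.4 and 12.1 CPM in Chrna4 and 15.6 and 15.3 CPM in Control and did not pass (log2 change -0.27, adjusted p = 0.125, limma-trend), though its groups did not overlap. Over the 8 subunits the median log2 change was -0.06, with 6 below 0. Their summed level overlapped between groups, at 759 and 730 CPM in Chrna4 and 786 and 752 CPM in Control.

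Complex V subunits were all below 0, 15 of 15, with a median log2 change of -0.15. Of these, 1 was called lower (6.67%, against 6.66% of all tested genes). Atp5j (chr16:84827866-84835625, minus strand), coupling factor 6 of the peripheral stalk that holds the catalytic head still, had 44.9 and 47.0 CPM in Chrna4 and 61.0 and 54.2 CPM in Control. It fell by 0.32 on the log2 scale (adjusted p = 0.0175, limma-trend). The catalytic beta subunit Atp5b was the most abundant of the 103 genes and scarcely differed, at 1297 and 1294 CPM in Chrna4 and 1331 and 1300 CPM in Control. The alpha subunit Atp5a1 overlapped between groups, at 855 and 845 CPM in Chrna4 and 876 and 844 CPM in Control. Atp5g3, the main gene for the proton-carrying c ring, had 104 and 106 CPM in Chrna4 and 140 and 111 CPM in Control, so that its Control libraries differed more from each other than Control 3 did from Chrna4 (adjusted p = 0.087, limma-trend).

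Complex I, NADH dehydrogenase, had 35 of 36 subunits below 0 and a median log2 change of -0.09. Of the 36, 1 was called lower (2.78%, against 6.66% of all tested genes). Ndufv3 (chr17:31520115-31531331, plus strand), an accessory subunit of the NADH-oxidising tip, had 42.2 and 36.3 CPM in Chrna4 and 49.0 and 48.4 CPM in Control, a log2 change of -0.31 ± 0.09 (SE; adjusted p = 0.029, limma-trend). The catalytic core and the accessory subunits had nearly equal medians, -0.10 over 7 genes and -0.09 over 29. Ndufv1, which holds the flavin that takes electrons from NADH, had 124 and 127 CPM in Chrna4 and 131 and 132 CPM in Control. Its groups did not overlap and it did not pass the test. Ndufb4 was the single complex I subunit above 0, at 3.28 and 2.94 CPM in Chrna4 and 2.99 and 2.94 CPM in Control.

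Complex II, succinate dehydrogenase, has 4 subunits and links the chain to the Krebs cycle. Sdhc (chr1:171127165-171150603, minus strand), a membrane anchor that binds the haem, had 95.4 and 89.3 CPM in Chrna4 and 108 and 106 CPM in Control, a log2 change of -0.21 ± 0.06 (SE; adjusted p = 0.042, limma-trend). DESeq2 gave it an adjusted p of 0.061, so the call depended on the test. Sdhd, the other anchor, had 113 and 114 CPM in Chrna4 and 130 and 120 CPM in Control, and did not pass. The flavin-bearing catalytic subunit Sdha had 206 and 203 CPM in Chrna4 and 207 and 212 CPM in Control, and the iron-sulfur subunit Sdhb had 79.1 and 71.9 CPM in Chrna4 and 81.1 and 74.2 CPM in Control. The anchors were thus further from Control than the catalytic pair, a difference that was not tested.

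**Figure D3:**
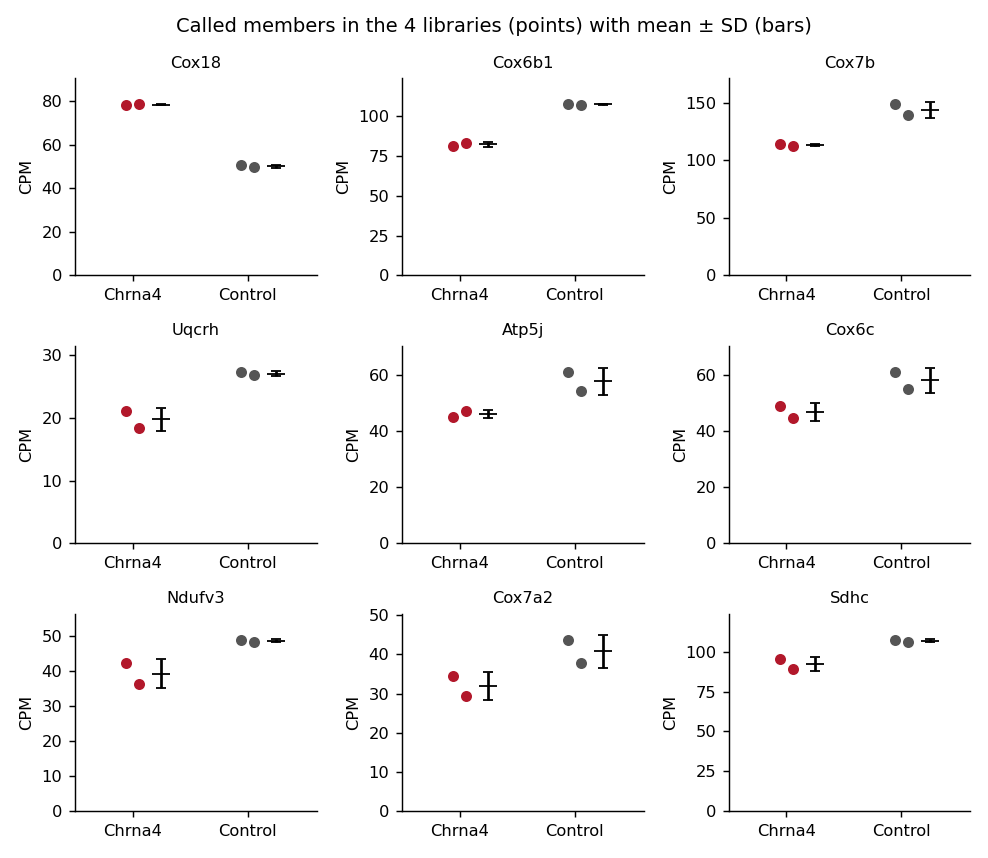
CPM of the 9 genes past the adjusted p of 0.05 in each library, with the mean ± SD (n = 2) beside the points and axes from 0. Cox18 is higher in both Chrna4 libraries and the other 8 genes are lower in both.

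Cox18 was the only gene of the 99 tested that was called higher. It lies at chr5:90214724-90224001, minus strand, and encodes an inner-membrane insertase that places part of the mitochondrially encoded subunit 2 of complex IV into the membrane. It had 78.3 and 78.8 CPM in Chrna4 and 50.7 and 49.7 CPM in Control, 78.5 ± 0.36 and 50.2 ± 0.73 CPM on average (SD, n = 2 each). The log2 change was 0.64 ± 0.07 (SE; adjusted p = 4.4e-05, limma-trend), a 1.56-fold ratio of mean CPM, and it stayed called in each of the 13 alternatives tried. Its exons overlap no other gene's in the annotation and none of its 50-base windows occurs in another gene's transcript.

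The remaining complex IV assembly factors went both ways. Cox15 and Cox10, which make haem A, stood at 166 and 170 CPM and at 37.2 and 39.7 CPM in Chrna4, and at 158 and 158 CPM and 33.9 and 35.7 CPM in Control. The copper chaperone Cox17 was also higher in both Chrna4 libraries, at 11.9 and 10.6 CPM in Chrna4 and 9.89 and 9.15 CPM in Control, while Cox19 was lower in both, at 18.2 and 15.5 CPM in Chrna4 and 20.4 and 19.99 CPM in Control. None of these passed the test. Of 8 tested complex IV factors, 4 had both Chrna4 libraries above the Control libraries (50%, against 28.7% of all tested genes). The other 4 had both below (50%, against 28.8%). For the other complexes, Sdhaf2, which attaches flavin to Sdha, had 94.9 and 97.8 CPM in Chrna4 and 86.7 and 86.5 CPM in Control, while Sdhaf1, an iron-sulfur factor for Sdhb, had 41 and 47 reads in Chrna4 and 59 and 59 in Control, a log2 change of -0.23, and shares 69.0% of its windows with another gene. Uqcc1, of complex III, had 48.2 and 44.9 CPM in Chrna4 and 41.5 and 40.9 CPM in Control. These 3 genes were not called.

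No assembly factor outside complex IV was called by limma-trend, edgeR, limma-voom or DESeq2, and 2, Sdhaf2 and Uqcc1, had an unadjusted p under 0.05 by limma-trend. For complex I, Ndufaf4 had 27.4 and 23.6 CPM in Chrna4 and 31.9 and 21.7 CPM in Control, so its Control libraries spanned both Chrna4 values. Ndufaf7, which methylates a core subunit, had 22.7 and 22.5 CPM in Chrna4 and 24.9 and 25.7 CPM in Control and was not called. The 8 complex I factors had a median log2 change of -0.04, from -0.16 to 0.15. Uqcc2, of complex III, overlapped between groups, at 22.4 and 18.5 CPM in Chrna4 and 21.9 and 21.5 CPM in Control. For complex V, Atpaf2 overlapped, at 23.4 and 23.0 CPM in Chrna4 and 22.8 and 25.9 CPM in Control, and Atpaf1 did not, at 10.8 and 11.8 CPM in Chrna4 and 11.9 and 13.7 CPM in Control. Both bind free subunits of the catalytic head. Cox7a2l, which joins complexes III and IV into supercomplexes, had 52.1 and 45.8 CPM in Chrna4 and 58.7 and 52.7 CPM in Control and did not pass. Of the 2 unclassed entries, Atp5s had 109 and 125 reads in Chrna4 and 139 and 137 in Control, and Atp5l-ps1 had 39 and 46 reads in Chrna4 and 65 and 38 in Control.

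Levels per kilobase of transcript showed which isoforms the line used. Cox4i1, Cox6a1 and Cox7a2 carried the signal. The oxygen-responsive form Cox4i2 was at 0.062% and 0.345% of Cox4i1 in Chrna4 and 0.662% and 0.321% in Control, from 3, 16, 38 and 16 reads. Muscle-type Cox6a2 had 0 and 2 reads in Chrna4 and 4 and 4 in Control, and a count of 0 in the first of these libraries allows up to 0.0975 CPM. Muscle-type Cox7a1 had 14 and 2 reads in Chrna4 and 18 and 34 in Control. These 3 isoforms and Cox20 lay below the level filter and were not tested in the main analysis. Without the filter none of them was called, and with so few reads a difference between groups could not be judged. Among the c ring genes, Atp5g2 was at 10.8% and 9.22% of Atp5g3 per kilobase in Chrna4 and 10.3% and 9.65% in Control, although 87.4% of its windows also occur in other transcripts.

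The 99 genes had short transcripts. Their principal transcript had a median of 1001 bases, against 2976 over all tested genes, and the structural subunits (850 bases) were shorter than the assembly factors (1813 bases). Across the 99 genes the log2 change was higher for longer transcripts, with Pearson's r 0.36 and Spearman's rho 0.38. Over 11215 tested genes with a length, the same relation gave r 0.07 and rho 0.12. Both are descriptions across genes of the same 4 libraries, and genes are not independent replicates. With a correction for GC content and exon length over all genes, the median change of the 99 was -0.06, 79 were below 0, and 10 were called lower. GC content (r -0.07) and mean level (r 0.02) showed little relation with the change.

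**Figure D4:**
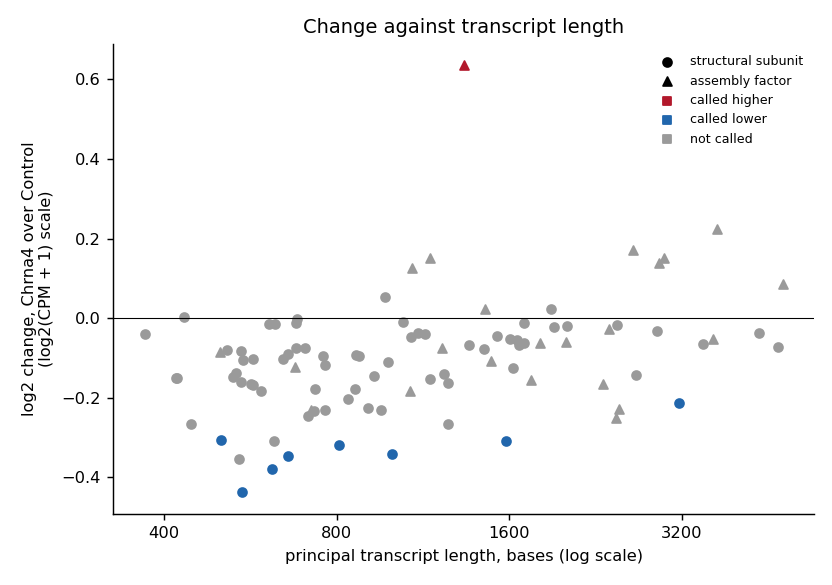
Log2 change, Chrna4 over Control, against principal transcript length on a log axis for 97 tested genes with a class, circles for structural subunits and triangles for assembly factors. Most called genes are short and below 0, with Ndufv3, Sdhc and Cox18 at longer lengths.

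Several of these genes share sequence with another annotated gene, either a copy elsewhere or a gene overlapping at the same place. Either can split or lose reads in the authors' counting, and the window counts here do not separate the 2 kinds. Of the 103 genes, 60 shared at least 1 window of 50 bases with another gene and 24 shared over 20% of their windows. Atp5l, a membrane subunit of the ATP synthase, shared 84.8% of its windows with 14 other genes, 12 of them pseudogenes, and had 1.95 and 1.87 CPM in Chrna4 and 2.06 and 2.10 CPM in Control. Its level is therefore uncertain, as are those of Atp5g2, Atp5h, Cox7c, Cox16 and Cox11, each with over 50% shared. Cox16 shared its windows with 1 gene that is no pseudogene, and Gm20498 on the same strand overlaps 56.8% of its exonic length. Among the genes called, Cox6c (21.1%), Atp5j (16.3%) and Uqcrh (7.83%) shared some windows, and Cox6b1, Cox7a2, Ndufv3 and Cox18 shared none. Exons of 39 genes overlap another gene, 34 of them on the opposite strand. Atp5j and Gabpa form such a pair. Gabpa encodes a subunit of nuclear respiratory factor 2, and its exons overlap 12.7% of the exonic length of Atp5j. The sources used here do not state whether the authors counted by strand.

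**Figure D5:**
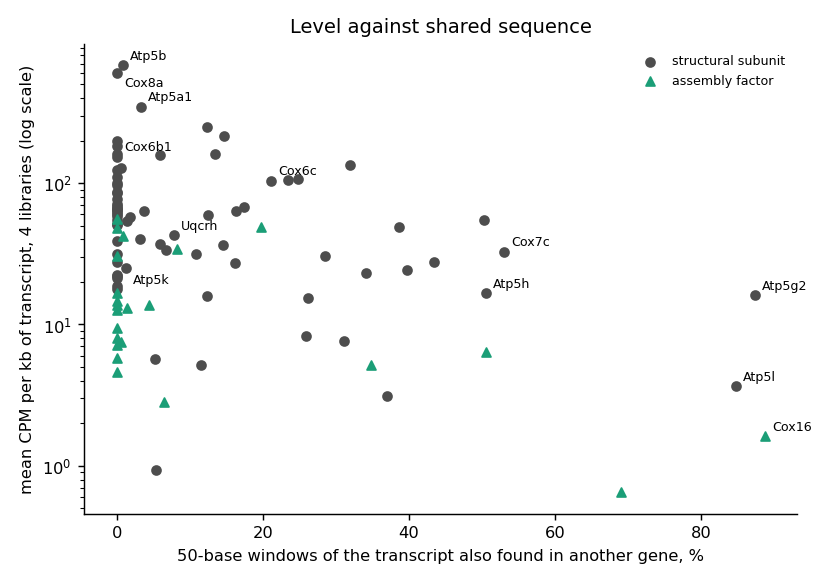
Mean CPM per kilobase over the 4 libraries, on a log axis, against the percentage of 50-base windows also found in another gene, for 97 tested genes with a class. Atp5b and Cox8a, with few or no shared windows, have the highest levels, and Cox16 and Atp5l, with over 80% shared, are among the lowest.

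Promoter sequence is shown for the most clearly lowered genes, since nuclear respiratory factor 1 (NRF1), GABPA (a subunit of nuclear respiratory factor 2) and YY1 are regulators known to bind promoters of respiratory chain genes. RefSeq windows from 250 bases before to 50 after the start (build GRCm38.p6) were matched for 86 of the 103 genes. They were searched on both strands for GCGCANGCG (NRF1), CCGGAAGT (GABPA) and AAGATGGCG (YY1). The 250 bases before the start are printed 5′ to 3′ on the gene's strand, with any match in capitals, for the lowered genes Cox6b1 (chr7:30626115-30626364, minus strand), Cox7b (chrX:106015450-106015699, plus strand), Uqcrh (chr4:116075071-116075320, minus strand) and Atp5j (chr16:84834977-84835226, minus strand). Cox6a1 (chr5:115348959-115349208, minus strand), a complex IV subunit that was not called, is shown for its NRF1 matches.
Cox6b1: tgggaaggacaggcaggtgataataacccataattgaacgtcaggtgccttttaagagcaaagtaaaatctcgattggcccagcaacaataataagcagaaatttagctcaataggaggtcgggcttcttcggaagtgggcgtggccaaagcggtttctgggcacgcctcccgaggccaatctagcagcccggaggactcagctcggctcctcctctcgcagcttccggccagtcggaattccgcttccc
Cox7b: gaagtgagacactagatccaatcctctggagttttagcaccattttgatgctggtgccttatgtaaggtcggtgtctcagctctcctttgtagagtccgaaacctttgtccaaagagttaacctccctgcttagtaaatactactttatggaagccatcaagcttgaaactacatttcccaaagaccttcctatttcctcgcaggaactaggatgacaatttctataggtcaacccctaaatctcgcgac
Uqcrh: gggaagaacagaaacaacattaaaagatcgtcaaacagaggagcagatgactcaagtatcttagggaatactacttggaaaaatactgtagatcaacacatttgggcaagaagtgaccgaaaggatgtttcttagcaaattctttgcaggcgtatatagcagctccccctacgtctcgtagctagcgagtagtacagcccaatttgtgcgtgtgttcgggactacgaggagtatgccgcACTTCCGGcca
Atp5j: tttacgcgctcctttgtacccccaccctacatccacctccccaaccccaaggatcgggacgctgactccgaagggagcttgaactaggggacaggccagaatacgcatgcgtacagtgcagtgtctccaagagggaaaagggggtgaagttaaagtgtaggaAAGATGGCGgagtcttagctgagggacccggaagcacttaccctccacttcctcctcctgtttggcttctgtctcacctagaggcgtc
Cox6a1: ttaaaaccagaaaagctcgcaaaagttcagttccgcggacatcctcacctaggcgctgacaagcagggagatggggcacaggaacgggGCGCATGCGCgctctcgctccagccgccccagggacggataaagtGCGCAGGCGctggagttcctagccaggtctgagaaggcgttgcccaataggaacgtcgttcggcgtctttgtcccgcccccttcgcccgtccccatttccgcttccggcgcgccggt

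The Uqcrh match, on the opposite strand, is the GABPA motif and begins 11 bases before the start. The Atp5j match is the YY1 motif, beginning 88 bases before the start of the window printed. RefSeq gives Atp5j a second window (chr16:84835576-84835875, minus strand), which held no match to the 3 motifs. That window spans 84835625, the start of this minus-strand gene in GENCODE. The window printed lies inside the gene and was picked because it held a match. Cox6a1 holds 3 NRF1 matches, of which 2 overlap on opposite strands. Of the 86 genes, 23 (26.7%) held the NRF1 motif, against 7.03% of the 27025 genes in the RefSeq table. GABPA matches were found in 9 (10.5%, against 4.31%) and YY1 matches in 10 (11.6%, against 1.64%). The 27025 genes include many that were not tested here, and shares among the tested genes alone were not counted. Among structural subunits the NRF1 motif was found for 7 of 14 complex V genes and 1 of 10 complex IV genes. Windows were available for 6 of the 8 lowered genes, of which 0 held the NRF1 motif, 1 held GABPA and 1 held YY1. A match is a description of these letters and says nothing of whether the factor binds.

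Genes that work with the chain but lie outside the symbol rule are given for setting. The 13 protein-coding genes of mitochondrial DNA were lower as well, with a median log2 change of -0.51. Of the 13, 10 were called lower (76.9%, against 6.66% of all tested genes) and 0 higher (0%, against 9.26%). Control 1 was above Control 3 for 11 of the 13, with a median log2 difference of 0.29. For mt-Cytb, of complex III, Control 1 was instead the lower control, with 2557 and 2630 CPM in Chrna4 and 3699 and 3820 CPM in Control. All 3 mitochondrial subunits of complex IV had both Chrna4 libraries below both Control libraries. mt-Co3 fell by 0.35 on the log2 scale (adjusted p = 0.0051, limma-trend). mt-Co2, the subunit that Cox18 inserts, had 1706 and 1602 CPM in Chrna4 and 2961 and 1781 CPM in Control, a log2 change of -0.47 that did not pass (adjusted p = 0.074, limma-trend), with Control 1 far above Control 3. mt-Co1, at a log2 change of -0.22, did not pass either. Among 25 further assembly factors, 2 were called lower (8%, near the 6.66% of all tested genes) and 0 higher, namely Higd2a (29.0 and 31.2 CPM in Chrna4, 36.2 and 37.1 CPM in Control) and Cmc2 (3.67 and 3.86 CPM in Chrna4, 5.76 and 5.53 CPM in Control). Both serve complex IV, and the median of the list was -0.01. Leaving out either Chrna4 library left none of the list called lower.

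Of 27 electron carrier and Krebs cycle genes, 2 were called lower, Etfdh and Fh1 (7.41%, near the 6.66% of all tested genes). Coq2 was called higher (3.7%, against 9.26%), and the median log2 change was -0.08. Etfdh, which feeds electrons from fat oxidation into ubiquinone, had 35.0 and 35.0 CPM in Chrna4 and 43.2 and 42.9 CPM in Control. Without either Chrna4 library in turn, neither Etfdh nor Fh1 was called. For 22 genes of mitochondrial import and content none was called by limma-trend, 3 had an unadjusted p under 0.05, and the median was -0.002. Of 14 regulators of mitochondrial biogenesis, 1 was called lower and 1 higher (7.14% each, against 6.66% and 9.26% of all tested genes). Gabpa was lower, at 67.6 and 67.5 CPM in Chrna4 and 77.9 and 78.0 CPM in Control (adjusted p = 0.0498, limma-trend). Pprc1, a coactivator related to PGC-1alpha, was higher, at 288 and 290 CPM in Chrna4 and 237 and 258 CPM in Control (adjusted p = 0.025, limma-trend). Gabpa was close to the threshold and was not called with RLE factors, without a filter, with a pseudocount of 0.1, by DESeq2, or without either Chrna4 library.

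The authors' deposited table gave 10 of the 103 genes lower and 1 higher at an adjusted p under 0.05. Over all 13422 listed genes it gave 1021 lower and 1240 higher. The 10 were the 8 called lower here with Ndufb7 and Atp5g3, and the 1 higher was Cox18. In the same table, with its sign turned to Chrna4 over Control, Cox18 had a log2 change of 0.65 and Cox6b1 of -0.38.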

How the data were processed

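PolyA RNA of AML12 cells was sequenced as 2 libraries per plasmid, grouped by the plasmid in the labels. TopHat2, HTSeq and mm10/GRCm38 are named in the submitters' processing notes, without versions. The authors deposited 1 table. Per the file headers it holds a value per gene and library (a signal in CPM relative to a scaled library size), a log2 fold change and log2 mean CPM, and a p-value with its adjusted value; the fold change is Control over Chrna4 and was turned round. Deposited CPM values came out whole in units of 1 read (0.0308 to 0.0325 CPM) for 100% of entries, at a tolerance of 0.01 reads, so reads were recovered for count tests.

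limma-trend (limma 3.58.1, R 4.3.3) was run on log2(CPM + 1) for 11298 genes (mean CPM 1 or more), with 2 residual and 9.55 prior degrees of freedom, Benjamini-Hochberg adjustment and a threshold of 0.05. This scale understates changes of low genes. The per-library values were not raw counts, so edgeR 4.0.16 and DESeq2 1.42.0 on recovered reads served as alternatives, with limma-voom; edgeR called 1854 genes. The fit was tested on simulated data. Lengths and shared windows come from one principal transcript per gene in GENCODE M21 (GRCm38), and GC content from the longest transcript of each gene. The GC and length correction used the merged exon length of each gene. Whether libraries of a group came from separate cultures is not in the labels; the p-values cover only the spread between these libraries, which may be technical. The genes, roles, lists and tests were chosen with earlier results of these data known.

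Named genes are those called; the 2 of highest CPM per complex and class; the 3 largest changes each way at a mean of at least 5 CPM; the isoform sets; genes below the filter; and up to 3 called genes per added list. Ndufb4, Ndufb7, Uqcr11, mt-Co1 and genes named for shared sequence, Cox10, Cox19, mt-Co2 and mt-Co3 were chosen after their values were seen. Alternatives were leaving out each library, library totals, RLE factors, a pseudocount of 0.1, no filter or one at 5 CPM, a threshold of 0.01, a GC and length correction, and edgeR, DESeq2 or limma-voom. A gene that the naming rule takes is not reported here.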

Additional observations from a re-analysis of the deposited data

How the results depend on the processing

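The 2 samples per group and the spread between the Control libraries limit these results. No paired analysis was possible because the groups share only replicate number 1. In the main analysis 8 of the genes were lower and 1 higher, and 1 higher was found in every alternative listed here. Using library totals moved the median of all genes to -0.054. It gave 18 lower, and medians of -0.146 over all the genes, -0.157 over structural subunits, -0.104 over assembly factors, -0.146 for complex I and -0.144 for complex II; the whole table split into 812 higher and 1179 lower, against 1046 and 752. The cause was not tested. A threshold of 0.01 left 3 lower and 963 genes changed in all, fewer by construction. Without a level filter, when all 14 complex IV subunits were tested, their median was -0.237. With the GC and length correction medians were -0.0221 for assembly factors and -0.0660 for complex I; the cause was not tested. Leaving out each library gave 2 (without Chrna4 2, Cox6b1 and Cox7b) to 26 lower (without Control 3; 13 without Control 1), and 928 (without Chrna4 2) to 3006 (without Control 3) genes changed, with 1040 without Chrna4 1 and 2916 without Control 1. Over the same left-out libraries the medians ranged from -0.139 to -0.0657 over all the genes, from -0.152 to -0.0665 over structural subunits, from -0.0929 to 0.0477 over assembly factors, from -0.129 to -0.0665 for complex I, from -0.153 to -0.0643 for complex II, from -0.130 to -0.0233 for complex III, from -0.235 to -0.108 for complex IV and from -0.188 to -0.0630 for complex V. Of 480 recomputed values of 37 named genes, 445 kept direction and side of the threshold, 15 passed it newly and 9 no longer passed. The remaining 11, all of genes not called, changed sign: with library totals Uqcrc2 (-0.0296); with the GC and length correction Ndufa4 (0.0815); and with a library left out, for which the ranges were Ndufaf4 -0.32 to 0.216, Atp5a1 -0.0436 to 0.0110, Ndufa4 -0.0935 to 0.0649, Sdhb -0.107 to 0.0270, Atpaf2 -0.152 to 0.0280 and Uqcc2 -0.218 to 0.0477. Above 0 were Ndufaf4, Atp5a1, Ndufa4 and Sdhb without Control 1, Atpaf2 without Control 3, and Ndufaf4, Uqcc2, Ndufa4 and Sdhb without Chrna4 2.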
